A study of Mus musculus with 2 samples.

Results

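The cells described here are 86 epithelial cells of mouse colonic crypts that carried RNA of both Clu and Cldn10, and all 86 came from the library of the knockout genotype. They were chosen by UMI counts (unique molecular identifiers, 1 per captured RNA molecule). A barcode needed at least 2000 UMIs, at least 500 genes and under 25% mitochondrial UMIs. Epithelial identity was set by at least 1 UMI of Epcam, the epithelial adhesion molecule, 0 UMIs of Ptprc, the pan-leukocyte antigen CD45, and at most 1 UMI of Chga and Chgb, the enteroendocrine granins. Members also had at least 1 UMI of Clu, at least 1 of Cldn10 and at least 5 of the pair together. They were 86 of 4844 gated cells of the knockout library (1.78%, exact binomial interval 1.42% to 2.19%) and 86 of the 19406 barcodes of the series. The control library had 0 members among 7480 gated cells, where 3 counts would be a share of 0.0401%.

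Crypt cells isolated from the colon of C57BL/6 mice, 4 weeks of age, were profiled by 10x Genomics single-cell RNA sequencing. The control genotype was M14(f/f), with floxed alleles and no Cre. The other genotype was M14(f/f);Villin-Cre, called the knockout here, in which a Cre recombinase under the Villin promoter acts in gut epithelium but not in blood-derived cells of the same tissue. M14 was read as Mettl14, a subunit of the enzyme that writes N6-methyladenosine on RNA. Cells of 3 mice were pooled into 1 library per genotype, so no difference between genotypes could be tested, and members are cells of 1 library, not replicates. Intervals below are 95% intervals for counting error only.

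Follicle-associated epithelium is the thin epithelial sheet over the lymphoid follicles of the gut wall. It holds M cells, which carry particles from the lumen to the lymphocytes beneath, and it forms when the cytokine RANKL reaches its receptor RANK on epithelial cells. Regenerative, or fetal-like, epithelium appears after injury, when crypt cells take on genes of the fetal gut such as Ly6a and Anxa1, often together with targets of the co-activator YAP. Clu, which encodes the secreted chaperone clusterin, is used as a marker in regenerating epithelium, and Cldn10 encodes a tight-junction claudin that forms ion-selective pores. The question asked of the 86 cells was how the genes of either programme stood in them.

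The libraries held 111239295 UMIs in 10181 control barcodes and 89729527 in 9225 knockout barcodes. Mettl14 itself was at 3.14 CPM (UMIs per 1000000 summed UMIs of the group) in members, 5.11 CPM in the other gated knockout cells and 4.76 CPM in the control. No source used here states where the floxed exons lie relative to the sequenced RNA ends, so this level does not check the genotype. Xist, the RNA that coats the inactive X in female cells, was at 0.0669 CPM in the gated control cells, 299 CPM in the other knockout cells and 203 CPM in members. Sex and genotype therefore cannot be told apart. The libraries shared 33 barcode sequences, none of them a member's. A doublet caller gave members scores of 0.0264 to 0.176 (median 0.0478, equal to that of the other knockout cells), all below the limit of 0.25. Members held a median of 16959 UMIs (2139 to 91082), against 12702.5 in the other knockout cells and 11573.5 in the control. Their mitochondrial share had a median of 3.63% (at most 22.1%), against 4.64% and 3.44%.

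Clu and Cldn10 chose the members, so their values are given as a description only. Clu had 1 to 98 UMIs per member (median 9.5), and Cldn10 had 1 to 56 (median 5). Members held 48.6% of all Clu UMIs and 68.1% of all Cldn10 UMIs of the gated knockout cells. In the gated control cells Clu had a UMI in 273 cells (3.65%) and never more than 6, and Cldn10 had a UMI in 38 cells (0.508%) and never more than 2. In the knockout library Clu had a UMI in 647 cells (13.4%) and Cldn10 in 288 (5.95%). The 2 genes occurred together in 115 knockout cells and in 2 control cells. Among knockout cells with Cldn10, 39.9% also had Clu, against 11.7% of those without. The same shares in the control were 5.26% and 3.64%. At an equal depth of 2000 UMIs per cell, the expected share of cells with a Cldn10 UMI was 57.1% of members, 0.823% of other knockout cells and 0.0825% of control cells. T cell barcodes, which should lack both genes and had a median of 2133 UMIs, gave Clu in 0 of 122 and Cldn10 in 1 of 122 in the knockout library. B cell barcodes of that library gave each gene in 1 of 110. Control T cell barcodes gave Clu in 0 of 67 but Cldn10 in 2 of 67 (2.99%), a share above the 0.508% of gated control cells. The gates for T, B and myeloid barcodes were chosen after values had been seen.

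**Figure D1:**
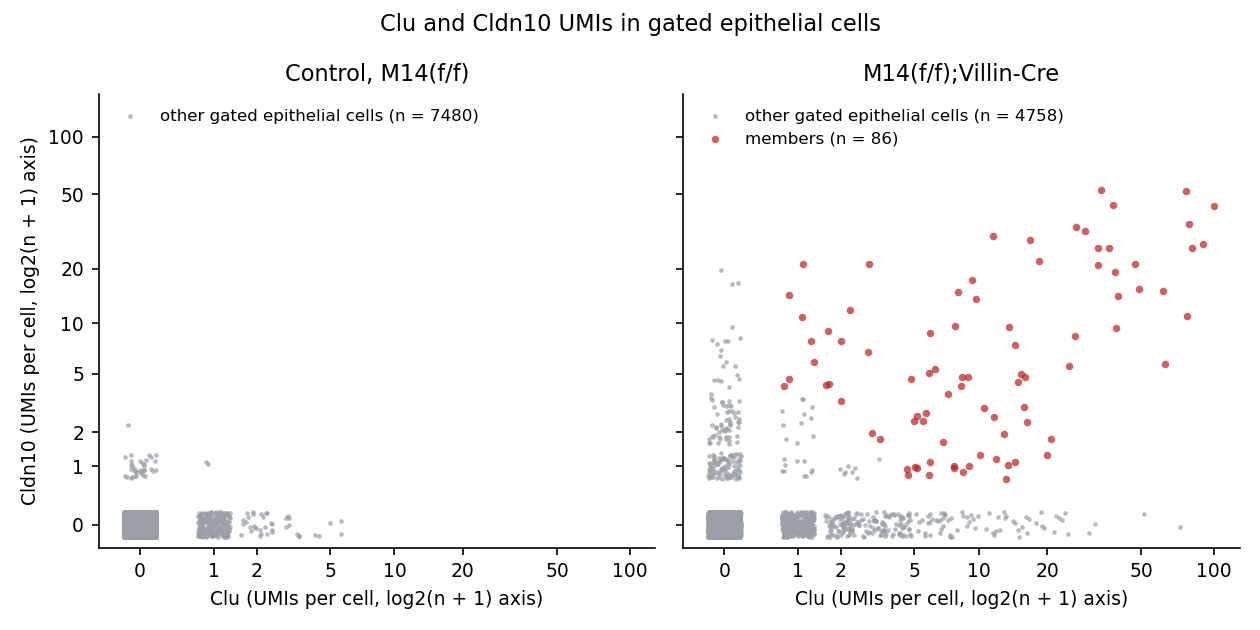
Clu UMIs per cell (x axis) against Cldn10 UMIs per cell (y axis), both on log2(n + 1) axes, for gated epithelial cells of the control (left) and knockout library (right), with points jittered. Red points are the 86 members, which reach 98 UMIs of Clu and 56 of Cldn10. No control cell passes 6 UMIs of Clu or 2 of Cldn10.

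Across all genes, the sum of the members' UMIs was set against the sum of the other 4758 gated knockout cells. A gene was called higher or lower past a 2-fold difference of CPM + 10. Of 6994 genes with a mean level of at least 10 CPM, 257 were higher in members (3.67%) and 167 were lower (2.39%), with a median log2 ratio of -0.00074. Over all 31047 genes with no level filter, the shares were 0.879% higher and 0.577% lower, and these are the background for the list counts below, which include every measured gene of a list.

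Genes of the follicle-associated epithelium and M cells were broadly higher in members. All 30 genes of the list were measured, 4 of them under the level filter. Ccl20 and Fabp5, which the list holds, had been given as markers of these cells beforehand. Of the 30, 23 were higher by 2-fold, 0 were lower and 7 lay between, with a median log2 ratio of 1.88. Regenerative and fetal-like genes gave another picture. Of 29 measured genes, 10 of them under the filter, 3 were higher, 2 were lower and 24 lay between, with a median log2 ratio of 0.01. With the 4 genes at 0 UMIs in members placed at their bound, that median was 0.16. The lists shared no gene and neither held Clu or Cldn10.

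**Figure D2:**
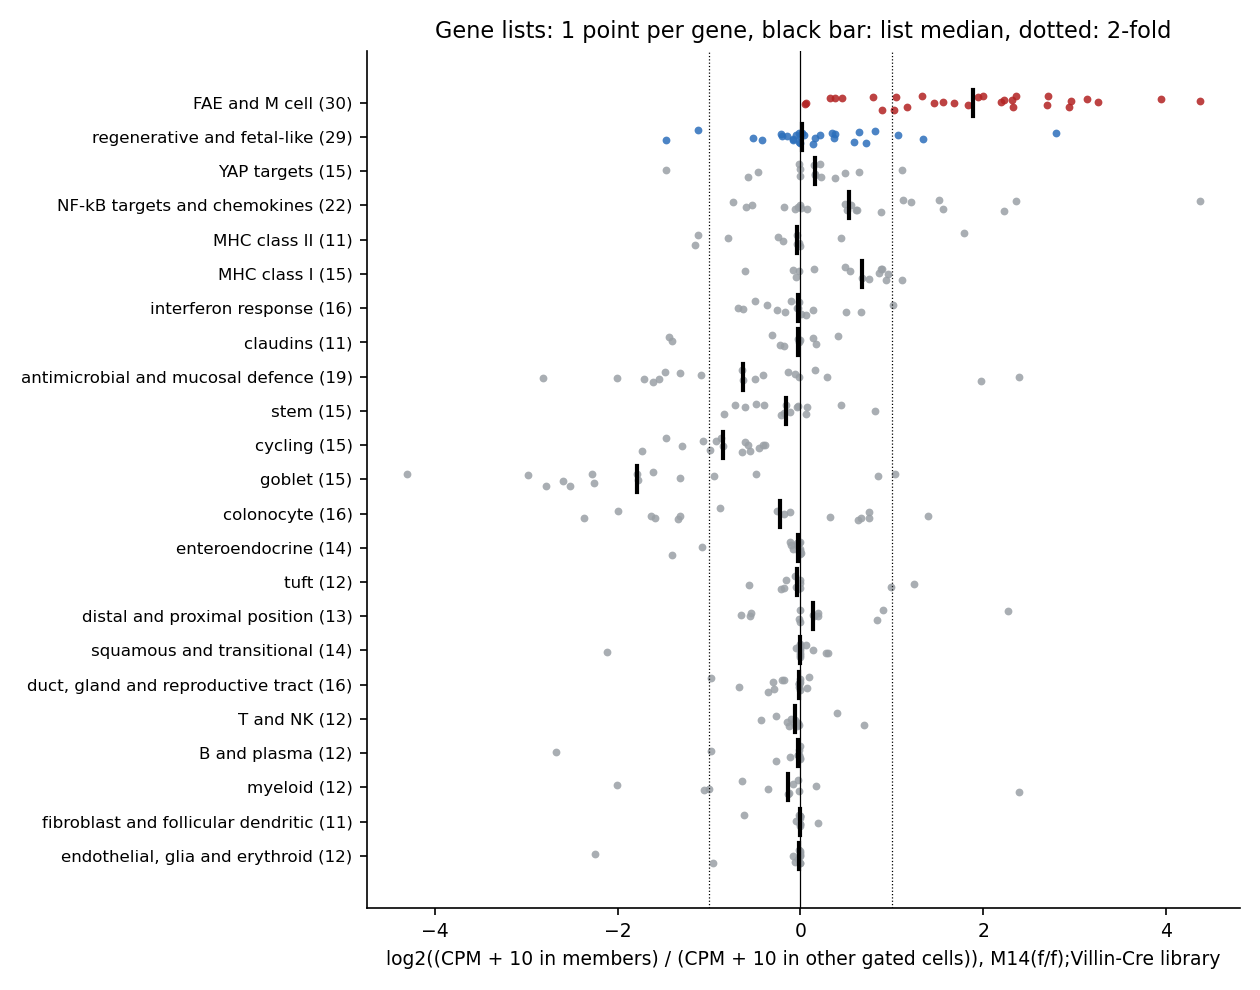
Each point is 1 gene of a list, placed by log2 of the CPM + 10 ratio of members over other gated knockout cells (x axis), with 1 row per list, its measured genes in parentheses, a black bar at the list median and dotted lines at 2-fold. The follicle-associated and M cell list (red, median 1.88) lies to the right, while the regenerative list (blue, median 0.01) spreads around 0 and the goblet list (median -1.79) lies to the left.

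The list held the chemokine genes Ccl20, Ccl9 and Cxcl16, all higher in members. Ccl20, the ligand that draws CCR6-bearing B cells and dendritic cells to follicles, had 0 to 410 UMIs per member (median 84.5) and was present in 84 of 86. Summed levels were 4721 CPM in members, 219 in the other knockout cells and 23.9 in the control, a ratio of 21.6 within the knockout library (21.0 to 22.1). The groups overlapped cell by cell, since 33.6% of the other knockout cells also had a Ccl20 UMI. At 2000 UMIs the expected shares were 92.4% of members, 15.6% of other knockout cells and 3.63% of control cells. In the knockout library a Ccl20 UMI was found in 4.55% of B cell barcodes (median 1554 UMIs), 4.02% of myeloid barcodes (median 3477.5) and 10.7% of T cell barcodes (median 2133). Free RNA and expression by those cells cannot be told apart in these shares. Ccl9, a chemokine of dendritic cell precursors, was at 636, 74.7 and 35.1 CPM in the same order, and had a UMI in 84 members. Cxcl16, the ligand of CXCR6, was at 83.8, 21.8 and 6.72 CPM.

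Promoters of list genes were searched because so many of these genes were high in the same cells. Among the 250 bases upstream of the RefSeq start site (GRCm38.p6), 20 of the 30 genes had a sequence to search. The kB motif, spelled GGG, then any 3 bases, then TTCC, read on both strands and known as a binding sequence of NF-kB factors downstream of RANK, was found in 5 of the 20 (25%), against 4.65% of 32851 promoters. The 5 were Ccl20, Ccl9, Pglyrp1, H2-M2 and Ubd. GAGGAAGT, a sequence bound by Spi-B and PU.1, was in 2 of the 20 (10%, Nostrin and Bcl2a1b), against 2.44% of promoters. A list gene counted once if any of its promoters matched, while the background counted every promoter, so the shares are not quite the same measure. These matches describe letters, and whether a factor binds there was not measured. Windows of 100 bases are given 5′ to 3′ on the strand of the gene, with the kB match in capitals; they lie at chr1:83116641-83116740 (plus strand) for Ccl20, chr11:83578637-83578736 (minus strand) for Ccl9 and chr17:37193792-37193891 (plus strand) for Ubd.
Ccl20: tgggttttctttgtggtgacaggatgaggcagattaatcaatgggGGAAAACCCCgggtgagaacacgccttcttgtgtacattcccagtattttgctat
Ccl9: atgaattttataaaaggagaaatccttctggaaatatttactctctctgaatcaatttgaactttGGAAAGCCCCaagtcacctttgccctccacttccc
Ubd: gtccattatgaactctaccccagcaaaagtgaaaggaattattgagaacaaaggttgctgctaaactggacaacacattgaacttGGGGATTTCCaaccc
The matches start 80 bases before the start site in Ccl20, 35 in Ccl9 and 15 in Ubd.

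Transcription factors and receptors of the M cell lineage were also higher. Spib, which encodes the Ets factor that M cells need to mature, had 0 to 20 UMIs per member (median 4.5) and was found in 75 of 86. Its level was 254 CPM in members, 17.8 in other knockout cells and 0.134 in the control, where 12 of 7480 cells had a UMI. The ratio within the knockout library was 14.3 (12.8 to 15.9). Sox8, another factor of M cell maturation, was at 50.8, 2.20 and 0.0478 CPM and had a UMI in 48 members. Tnfrsf11a, which encodes RANK, was at 189, 86.5 and 31.6 CPM, a ratio of 2.19 (1.96 to 2.43) within the knockout library. Tnfrsf11b encodes osteoprotegerin, the decoy receptor for RANKL that M cells make, and it was at 172, 26.9 and 1.14 CPM.

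Gp2, the M cell receptor for bacterial fimbriae, was found in fewer members than Spib or Sox8. It was present in 35 of 86, with a median of 0 and a highest value of 49 UMIs. Its level was 226 CPM in members and 56.5 CPM in other knockout cells, a ratio of 4.01 (3.62 to 4.43), and 23.6% of the other knockout cells had a Gp2 UMI. Among non-members the goblet gate (Muc2 of at least 5 UMIs) had Gp2 at 85.9 CPM, above the 55.9 CPM of the gate on Il4i1, Plb1 and Ccl25 described below. Control cells had 0 UMIs of Gp2 in 7480 cells. Members with Gp2 and without it had median levels of the whole list of 447 and 466 UMIs per 10000 UMIs of the cell.

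Fabp5, a fatty acid carrier, was present in all 86 members with 4 to 890 UMIs (median 128), and was at 6738 CPM in members, 428 in other knockout cells and 77.0 in the control. Serpinb1a, a serine protease inhibitor, was at 8362, 948 and 311 CPM, and Ctsh, a lysosomal protease, at 1013, 147 and 67.3 CPM. Each was found in all 86 members. Ubd, which encodes the ubiquitin-like protein FAT10, was at 770, 90.8 and 0.764 CPM. Tnfaip2, a membrane-tube protein of M cells, was at 64.4, 4.55 and 0.0764 CPM and was found in 37 members. The 7 list genes between the 2-fold limits were Marcksl1, Anxa5, Icam2, Lamb3, Il22ra2, Tnfsf15 and Calcb. Icam2 and Il22ra2 had 1 UMI each in members, while Marcksl1 (1.92-fold) and Anxa5 (1.80-fold) came close to the limit.

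**Figure D3:**
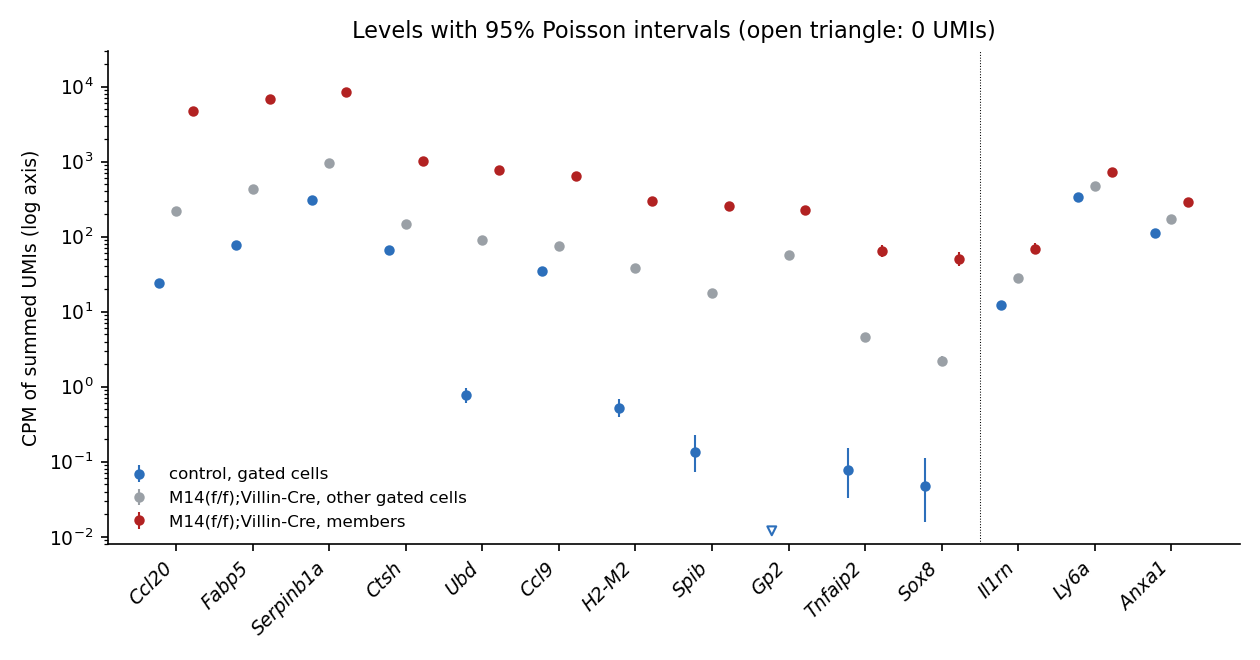
Levels as CPM of summed UMIs (log y axis) with 95% Poisson intervals for single genes in members, other gated knockout cells and gated control cells. Left of the dotted line are genes of the follicle-associated epithelium and M cells, such as Ccl20 at 4721, 219 and 23.9 CPM, and right of it regenerative genes, such as Ly6a at 725, 480 and 339 CPM. Open triangles mark 0 UMIs.

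The level of the list was graded with Clu and Cldn10 within the knockout library. Summed over its 30 genes, it took a median of 453 of every 10000 UMIs in members (91.3 to 1106), 31.0 in other knockout cells (0 to 1158) and 24.4 in control cells (0 to 195). This sum leans on a few abundant genes. Of the list's 35933 CPM in members, Serpinb1a made 8362, Fabp5 6738 and Ccl20 4721 CPM. Just outside the threshold, 19 cells with both genes and a sum of 3 or 4 UMIs had a median of 84.2. Just inside, 14 members with a sum of 5 to 7 had 231. The 36 members with a sum of 8 to 19 had 324, and the 36 with 20 or more had 658. Clu without Cldn10 went with an intermediate level, a median of 165 in 80 cells with at least 5 Clu UMIs. Cldn10 without Clu did not, with 30.3 in 18 cells with at least 5 Cldn10 UMIs, close to the 29.2 of the 4024 cells with neither gene. The 5 control cells with at least 5 Clu UMIs had a median of 28.1. Depth differed between these classes, with median totals of 23912 UMIs just outside the threshold, 12744.5 just inside, 13060.5 in the top class, 17024 with Clu alone and 35169.5 with Cldn10 alone, and its part was not tested.

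**Figure D4:**
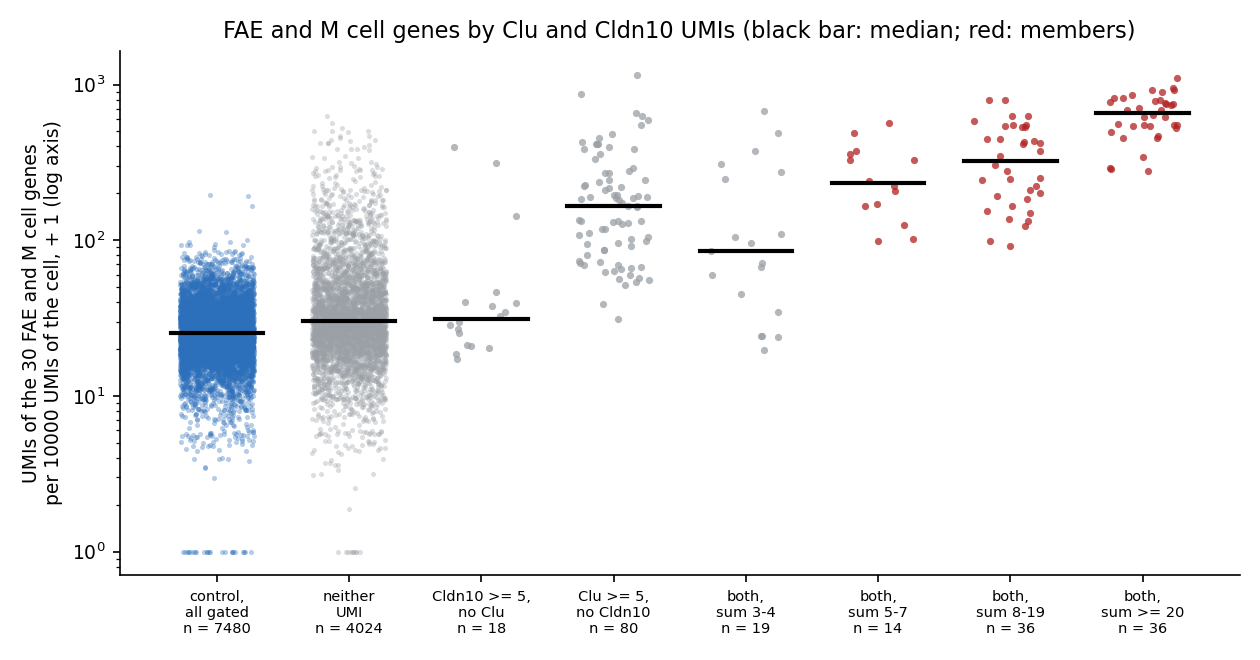
UMIs of the 30 follicle-associated and M cell genes per 10000 UMIs of the cell, plus 1 (log y axis), with 1 point per cell, cells grouped by their Clu and Cldn10 UMIs along the x axis, black bars at medians and members in red. The median goes from 84.2 per 10000 just outside the threshold to 658 in members with 20 or more UMIs of Clu and Cldn10, while cells with Cldn10 alone have 30.3.

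High levels of the list were not confined to members. Of the 4758 other knockout cells, 575 (12.1%) were at or above the lowest member and 23 (0.483%) at or above the members' median. In the control 13 of 7480 cells reached the lowest member, and 0 reached the members' lower quartile, which 122 other knockout cells did. The list also separated the other knockout cells from the control. Between these, 13 of its 30 genes were higher in the knockout library and 0 lower, with a median log2 ratio of 0.80. Of the 7047 filtered genes 3.12% were higher and 3.08% lower, and of all genes 0.789% and 0.75%. Members are not in that comparison, but its knockout cells are those the members were set against above.

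Most regenerative genes lay between the 2-fold limits, some of them above the other knockout cells by less than 2-fold. Ly6a, which encodes the surface protein Sca-1, had 0 to 196 UMIs per member (median 5.5) and was at 725 CPM in members, 480 in other knockout cells and 339 in the control. The ratio within the knockout library was 1.51 (1.43 to 1.59), under 2-fold. Anxa1, a phospholipid-binding annexin, was at 291, 174 and 110 CPM, a ratio of 1.68 (1.54 to 1.82). Il33, Ctgf, Ankrd1 and Ptgs2 had 0 UMIs in members. The 3 genes past 2-fold were Msln, Anxa8 and Il1rn. Msln, the mesothelin gene, was at 526 and 67.3 CPM, with 0 UMIs in the control, and Anxa8 was at 94.8, 31.6 and 1.89 CPM. Il1rn, the interleukin-1 receptor antagonist gene, was at 69.2, 27.7 and 12.1 CPM and dropped under 2-fold in 3 of the alternative settings. Lower were Cyr61 and Ly6c1, the latter at 6.29 against 25.4 CPM and under 2-fold in 2 settings. Cyr61, a YAP target, was at 4.19 CPM in members against 29.4 in other knockout cells and 60.8 in the control, with at most 1 UMI in any member, but its log2 ratio was -0.77 once cells in the goblet, colonocyte and cycling gates described below were left out.

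Of the 15 YAP targets, 8 lay under the level filter, and Cyr61, Ctgf, Ankrd1, Amotl2, Areg and Ereg are also in the regenerative list. Among the 15, 1 gene was higher (Crim1, under 2-fold in 2 settings) and 1 lower, with a median log2 ratio of 0.16. Summed over the regenerative list, members had a median of 93.1 UMIs per 10000 (19.6 to 356), other knockout cells 61.1 (0 to 994) and control cells 65.9 (0 to 373). Members with 20 or more UMIs of Clu and Cldn10 had 110 and those with 5 to 7 had 65.9. The ranges of the 3 groups overlapped throughout.

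Among targets of NF-kB and chemokines, 7 of 22 genes were higher and 0 lower, with a median of 0.53. They were Ccl20, Tnfaip2, Ccl25, Cxcl16, Icam1, Tnip1 and Birc3, of which Ccl20, Tnfaip2 and Cxcl16 also stand in the follicle-associated list. Icam1 (0.86) and Tnip1 (0.79) came under 2-fold on the log2 scale without cells in the goblet, colonocyte and cycling gates, and 3 genes of the list were then lower. Ccl25, a chemokine for gut-homing lymphocytes, was at 351, 67.5 and 10.5 CPM. Nfkbia, the NF-kB inhibitor gene, was at 790, 560 and 857 CPM, and the neutrophil chemokine gene Cxcl1 was at 27.8, 32.7 and 66.2 CPM.

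Of 11 MHC class II genes, 8 of them under the level filter, 1 was higher and 2 lower. Cd74, the invariant chain of MHC class II, had 0 to 78 UMIs per member (median 13) and was at 804 CPM in members, 227 in other knockout cells and 353 in the control, a ratio of 3.55 (3.36 to 3.74). The class II chains themselves were low, with 3 UMIs of H2-Aa and 0 of H2-Ab1 in all 86 members, and 7 of the 11 had 0 UMIs. Of 15 MHC class I genes, Psmb9, an immunoproteasome subunit, was higher and 14 lay between the limits, with a median of 0.68. The count of higher class I genes ran from 1 to 6 over the alternative settings, with 6 at a pseudocount of 1 CPM or a minimum of 5 UMIs of Clu and Cldn10 per 10000, and 5 without cells in the goblet, colonocyte and cycling gates. The median stayed between 0.58 and 0.87. H2-K1 was at 605, 306 and 915 CPM, so members lay between the other knockout cells and the control. Among 16 interferon response genes, 11 of them under the level filter, 1 was higher and 0 lower, with a median of -0.03. That gene, Ifi27, was at a log2 ratio of 1.01 and came under 2-fold in 3 settings (0.87 to 0.99), and with a pseudocount of 1 CPM 3 genes were higher and 3 lower.

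The genes that differed most from other knockout cells included several outside every list. Ccl2, a monocyte chemokine, was at 235 CPM in members against 3.39 in other knockout cells, but was unevenly spread, with a UMI in 41 members and 122 UMIs in the highest. Il4i1, a secreted amino acid oxidase, was at 1586, 122 and 1.03 CPM and present in 83 members. Cfp, the complement factor properdin, was at 155, 5.64 and 0.592 CPM, and C4bp, a complement regulator, was 15.3-fold above the other knockout cells at 123 CPM. Rnase1, a secreted ribonuclease, was at 367 CPM in members, 12.2-fold above the other knockout cells, and 0.726 CPM in the control. Tspan32 and Clec12a, known mainly from blood cells, were at 73.4 CPM each in members, against 1.33 and 1.64 CPM in other knockout cells. Also among the 20 highest were Cep63 (15.1-fold), Gcnt2 (26.7-fold), Pf4 (11.2-fold), Aoc1 (10.7-fold), Exoc3l4 (9.91-fold) and Arl11 (18.1-fold).

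Because several of these genes are also blood cell genes, markers of immune cells are given beside them. Under the filter of 10 CPM lay all 12 T and NK, 11 of 12 B and plasma and 9 of 12 myeloid markers. With 10 CPM added to both sides, genes at such low levels can hardly pass 2-fold. A lack of calls among them therefore does not show that their RNA was absent. The gate itself required 0 UMIs of Ptprc. Of 12 T and NK markers 0 were higher (0 to 2 over the alternative settings) and 8 had 0 UMIs in members, among them Cd3e, Cd3d and Nkg7. Trac and Cd3g stood above other knockout cells, at log2 ratios of 0.69 and 0.40, and Gzmb below, at -0.15. Summed, the list was at 14.7 CPM in members and 13.8 CPM in other knockout cells. Of 12 B and plasma cell markers 0 were higher and 10 had 0 UMIs, among them Cd79a and Ms4a1. Jchain had 5 UMIs in members (2.62 CPM), against 70.5 CPM in other knockout cells. Of 12 myeloid markers S100a8 was higher and S100a9 and Fcer1g were lower. Fcer1g came under 2-fold in 3 settings, with log2 ratios of -0.97 to -0.87. Lyz2 and S100a9 had 3 and 5 UMIs, while Csf1r, C1qb, Itgax and Csf3r had 0. Summed per 10000 UMIs, the T and NK list had a range of 0 to 3.35 in members, the B and plasma list 0 to 4.68, and the myeloid list 1.59 to 92.3 (median 7.71, against 3.67 in other knockout cells). The same sums started at 0 in the other knockout and control cells and reached 920 and 1063 for T and NK, 1062 and 20.4 for B and plasma, and 1895 and 114 for myeloid markers. The part of such RNA in the other values was not tested. S100a8, a calcium-binding protein of neutrophils, was at 392, 66.5 and 0.00955 CPM and found in 59 members, whereas its partner S100a9 was at 2.62 CPM in members and 40.6 in other knockout cells. Of 11 measured markers of fibroblasts and follicular dendritic cells, all 11 under the level filter, 9 had 0 UMIs, Tnfsf11, which encodes RANKL, among them. That list summed to 3.14 CPM in members and 7.78 CPM in other knockout cells, and Tnfsf11 had a log2 ratio of -0.05. The 0 UMIs of Tnfsf11 therefore do not set members apart.

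Most goblet genes were lower in members, while most genes of the colonocyte, cycling and stem lists lay between the 2-fold limits. Of 15 goblet genes, 11 were lower and 1, Ccl6, was higher (2.39% of filtered genes and 0.577% of all genes were lower), with a median log2 ratio of -1.79. Zg16, a goblet lectin, was at 115 CPM in members and 2461 in other knockout cells, 21.3-fold lower (18.7 to 24.5), and Muc2, the main mucin, at 413 and 2423 CPM. What remained was concentrated, since 1 member held 161 of the 220 Zg16 UMIs and 1140 of the 1504 UMIs of Spink4 came from 1 member. Of 16 colonocyte genes, 6 were lower and 1, the membrane mucin gene Muc3, was higher. Car1, a carbonic anhydrase of colonocytes, was at 316, 1672 and 15694 CPM. Of 15 cycling genes 4 were lower and 0 higher (median -0.85), and of 15 stem cell genes 0 passed 2-fold in either direction. Lgr5, the crypt base stem cell receptor, had 0 UMIs in members but was not called lower, since its level in other knockout cells was low too. With cells in the goblet, colonocyte and cycling gates left out of both groups, 5 goblet genes and 1 colonocyte gene were lower, and with a minimum of 3 UMIs of Clu and Cldn10 0 cycling genes were. Gfi1b, a tuft cell factor, was at 15.7 CPM against 0.854, while the tuft markers Dclk1, Trpm5 and Pou2f3 had 0 UMIs. Of 12 tuft genes 10 lay under the level filter, and Dclk1 had a log2 ratio of -0.05, so it was also near 0 in other knockout cells. The 0 UMIs of these markers therefore do not set members apart.

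Also among the 10 lowest were Klk1 (59.7 against 538 CPM), Slpi (132 against 987 CPM), Tff3 (7.09-fold lower), Spink1 (6.67-fold), 1810065E05Rik (8.09-fold), Plet1 (10.0-fold) and 2010109I03Rik (20.3-fold). Of the 10, Spink1, Plet1, Muc2 and 2010109I03Rik came under 2-fold without cells in the goblet, colonocyte and cycling gates. Pore-forming claudins other than Cldn10 were lower where they passed 2-fold. Cldn2 was at 18.3 CPM against 65.1, Cldn15 at 21.5 CPM was 3.49-fold lower, and the other 9 claudins lay between the limits. Gsdmc4, a gasdermin, was at 9.43 CPM in members, 12.2 in other knockout cells and 245 in the control.

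Position along the colon was described with a list of mainly Hox genes. Of 13 measured, 7 of them under the level filter, only Hoxb13 was higher and 0 were lower. The other 12 lay between the limits, and the median log2 ratio was 0.14. Hoxb13, whose RNA marks the most distal colon and rectum, had 0 to 39 UMIs per member (median 4), was found in 63 of 86, and was at 345, 63.5 and 95.3 CPM. Hoxa13 (28.3 against 10.5 CPM) and Hoxd13 (15.7 against 4.43 CPM) were also above the other knockout cells but under 2-fold with 10 CPM added. The presence of Hoxb13 did not go with a higher level of the follicle-associated list, whose median was 447 per 10000 in the 63 members with it and 550 in the 23 without. Non-members with Hoxb13 had a median of 29.8. Members without Hoxb13 had more Msln (1203 against 375 CPM), Il4i1 (2902 against 1293 CPM) and Gp2 (570 against 150 CPM), while Clu was at 691 against 888 CPM and Cldn10 at 515 against 479 CPM.

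Gates on other genes placed the members among the knockout cells. The gates were taken with earlier results known, and a cell can pass several. Il4i1, Plb1 and Ccl25 with at least 3 UMIs together were found in 84 of 86 members (97.7%, 91.9% to 99.7%), in 1060 of 4758 other knockout cells (22.3%) and in 28 control cells (0.374%). The 1060 non-members in that gate had a follicle-associated list median of 82.4 per 10000, between the 453 of members and 27.1 in the goblet gate. Their Spib level was 56.6 CPM and their Ccl20 level 637 CPM. Ubd was at 205 CPM in them against 770 in members, and Msln at 183 against 526. Ccl25, a gene of the gate itself, was at 196 against 351 CPM, under 2-fold. These traits are therefore partly shared with non-members of the gate. The goblet gate held 15 members (17.4%) and 52.8% of others, the cycling gate (Mki67 and Top2a of at least 3 UMIs) 9 members (10.5%) and 17.3%, and the colonocyte gate (Car1, Aqp8, Slc26a3 and Krt20 of at least 10 UMIs) 11 members (12.8%) and 12.3%. In all, 59 members lay in none of these 3 gates.

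When the gated knockout cells were clustered without Clu and Cldn10 among the variable genes, the members were not scattered evenly. Of 17 clusters, 7 held members, and 57 of the 86 (66.3%) fell in a cluster of 89 cells. Clustering used the same cells, so this is a description. Non-members of that cluster had a follicle-associated list median of 349 per 10000. Another 15 members lay in a cluster of 396 cells with a median of 134 in non-members, and 14 lay in the other 5 clusters. In a neighbour graph with 15 neighbours per cell, a member had a median of 8 member neighbours (0 to 15), with a mean of 7.60 against 0.104 for other cells, and 4 members had none. A cluster of 333 cells with Hoxb13 at 289 CPM held 100 Cldn10-positive non-members but only 3 members, and its non-members had a list median of 24.1.

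Within the 86 members, levels per cell followed Clu unevenly. Across these cells of 1 library, on a scale of log(1 + UMIs per 10000), Pearson's r of Clu was 0.63 with Cldn10, 0.68 with Fabp5, 0.55 with Ccl20 and 0.55 with Ubd, but 0.02 with Hoxb13 and 0.16 with Il4i1. Sox8 and Tnfaip2 had r = 0.60. Clu and Cldn10 also had r = -0.53 and -0.59 with the log of the cell's total UMIs, which enters each level as its denominator and enters the rule through its minimum of 5 UMIs, and its part in the other values was not tested.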

How the data were processed

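The deposited values are raw UMI counts per gene and cell barcode. The authors made these counts with Cell Ranger. Its version is 3.1.0 per the file headers but 3.0.0 per the submitters' processing notes, which also name Seurat 3. No source used here names the genome build. Counts of the 31053 genes were used as deposited, with no correction for free RNA.

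The members and the 23 gene lists were chosen with earlier results of these data known. UMIs were summed over cells of a group and divided by the group's total (CPM), with exact Poisson intervals, exact conditional intervals of ratios and exact Clopper-Pearson intervals of shares. Calls used log2((CPM + 10)/(CPM + 10)), with 2-fold as the limit and a mean of 10 CPM as the filter, and named ratios have no added count. Expected shares of cells with a UMI were computed for draws of 2000 UMIs per cell. Named genes were the 20 highest and 10 lowest of at least 10 UMIs, up to 8 per list by size, and the defining genes, and others printed were chosen after their values were seen. Mitochondrial, ribosomal, haemoglobin, immunoglobulin and T cell receptor genes were not ranked. Doublets were scored with Scrublet in scanpy 1.11.5, whose automatic threshold marked 0 control cells and 1 knockout cell, so a score of at least 0.25 was used, set with earlier results known, and 77 control and 53 knockout cells passed it. Gated knockout cells were clustered (2000 variable genes, 30 principal components, 15 neighbours, Leiden at resolution 1). The summed-count step was tested on simulated data. Python 3.11.15, numpy 2.4.6 and scipy 1.17.1 were used. Alternatives were other member thresholds, mitochondrial and UMI limits, doublet removal, pseudocount, weighting, and leaving out goblet, colonocyte and cycling cells. Another kept only comparison cells within the members' range of 2139 to 91082 UMIs, which does not match their depth. A further one dropped the level filter for counts over all genes but applied it to the lists, which otherwise had none.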

Additional observations from a re-analysis of the deposited data

Results flagged for a closer look

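In the knockout library 4 barcodes outside the epithelial gate also met the Clu and Cldn10 condition, against 0 in the control. Of these, 3 had fewer than 2000 UMIs and 1 had more than 1 UMI of Chga and Chgb. They were drawn to attention because they hold the signal in barcodes that no comparison used.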

How the results depend on the processing

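Of 11 alternatives, 10 were planned and 1, leaving out cells in the goblet, colonocyte and cycling gates, was added after seeing the data. The control had 0 members in all 7 that change the cells. Only a minimum of 3 UMIs of Clu and Cldn10, or of 5 per 10000, could have added members there. The others could only remove control cells or left them unchanged, so their 0 was fixed in advance. No named gene past 2-fold changed sign. Knockout members numbered 59 to 105. They were 63 when at least 5 UMIs of Clu and Cldn10 per 10000 were required, with 415 genes higher and 351 lower, and 59 without the gated cells. With a pseudocount of 1 CPM 407 genes were higher and 333 lower, and with a mean over cells 388 and 304. The cause of these shifts was not tested. The median of the follicle-associated list stayed between 1.67 and 2.14, with 20 to 24 genes higher. The regenerative median ranged from -0.03 to 0.14, with 2 to 5 genes higher, and the medians of YAP targets (-0.04 to 0.22), MHC class II (-0.33 to 0.45), tuft (-0.25 to 0.39) and myeloid genes (-0.60 to 0.17) also crossed 0. The upper ends for MHC class II, tuft and myeloid genes came from the setting that applied the level filter to the lists. It left 3, 2 and 3 genes in them. Some named genes under 2-fold also changed sign, such as Ereg (-0.10 to 2.35) and Olfm4 (-0.66 to 1.16). Lower goblet genes numbered 5 to 13 and lower cycling genes 0 to 10. Of 81 named genes past 2-fold, 26 came under it in some setting (774 of 810 values stayed past it). Without the gated cells Muc2 was at -0.73, Car1 at -0.68, Icam1 at 0.86 and Cyr61 at -0.77 on the log2 scale. No paired analysis was possible because each genotype had 1 library. With 86 cells summing to 1908517 UMIs, a gene at 0 UMIs in members was not detected at this depth. That bounds its level but does not show that its RNA was absent. Genes of few UMIs carry wide intervals.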

Other observations

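Some genes that no list held were also above the other knockout cells in members, and were picked after their values were seen. Bmp2, which encodes a bone morphogenetic protein, was at 126 CPM in members, 19.6 in other knockout cells and 11.1 in the control, with a UMI in 70 members. Igf1, the insulin-like growth factor gene, was at 148, 29.1 and 0.0382 CPM in the same order, in 51 members. Aqp4, a water channel gene, was at 428, 105 and 150 CPM, in 73 members. Krt36, a hair-type keratin gene, was at 96.4 against 6.86 CPM, but 180 of its 184 UMIs lay in 1 member.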
